A study of Mus musculus with 25 samples.

Results

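Retinoid storage and metabolism genes were followed in mouse liver as a list of 9 genes taken by name, chosen with earlier results of these data known, out of 41388 genes in the count files. All 9 symbols matched 1 Ensembl gene each, and every one exceeded a CPM (reads counted to the gene, scaled to the same library total) of 1 in all 25 libraries, so the filter on low counts removed none of them. The list holds the plasma retinol carrier Rbp4, the storage enzyme Lrat, the carotene cleavage enzyme Bco1, the retinol and retinal interconverting enzymes Rdh10 and Dhrs3, the retinal oxidising enzyme Aldh1a1, the retinoic acid hydroxylases Cyp26a1 and Cyp26b1, and the receptor Rarb.

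Vitamin A reaches the liver as retinyl esters carried in remnant lipoproteins. Hepatocytes hydrolyse the esters and either send retinol into blood bound to the product of Rbp4 or pass it to hepatic stellate cells, where the product of Lrat re-esterifies it for storage in lipid droplets. Retinol is oxidised reversibly to retinal and then irreversibly to retinoic acid, which binds nuclear receptors of the RAR family, and the Cyp26 enzymes clear it. Transcription of Cyp26a1, Rarb, Lrat and Dhrs3 is known to be raised by retinoic acid.

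The libraries were poly-A RNA sequencing of whole liver from male mice with the strain label C57B/6J and an age of 20 weeks. The animals had a chow diet with an empty AAV8 vector (chow WT EV, n = 3), or 12 weeks of Western diet (WD) with the empty vector (WD WT EV, n = 6) or a vector for NAMPT (WD WT NAMPT, n = 6), which catalyses the first step of NAD salvage from nicotinamide. Mice labelled LKO, which lack the NAD-dependent deacetylase SIRT1 in hepatocytes through Albumin-Cre and floxed Sirt1 alleles, had Western diet with either vector (WD LKO EV and WD LKO NAMPT, n = 5 each), and WT mice were floxed littermates without Cre. The NAMPT vector was driven by the hepatocyte thyroxine binding globulin promoter, and there was no chow group with LKO or NAMPT. The sample titles name NAMPT as the vector, the treatment field names SIRT1, and the titles were followed.

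Each library held between 20166175 and 32937326 reads counted to genes. The 6 hepatocyte markers summed to between 49000.0 and 80491 CPM in every library, against 3.58 to 23.1 CPM for the 4 bile duct markers. Whole-gene Sirt1 counts did not separate the genotypes, at 8.57 ± 1.34 CPM (SD, n = 5) in WD LKO EV and 8.86 ± 0.573 CPM (n = 6) in WD WT EV, and were higher in WD LKO NAMPT (9.82 ± 1.36 CPM, n = 5) than in WD WT NAMPT (8.58 ± 0.617 CPM, n = 6), against the labels, so counts over the whole gene did not check the genotype labels, and "LKO" below means libraries labelled LKO. Nampt was 59.5 ± 10.6 CPM in WD WT NAMPT and 47.4 ± 6.46 CPM in WD WT EV, a difference of 0.34 ± 0.16 (log2, SE) that did not pass (limma adjusted p = 0.144). In WD LKO NAMPT it was 79.9 ± 28.4 CPM, against 56.1 ± 12 CPM in WD LKO EV (limma adjusted p = 0.403). Among the WD WT NAMPT libraries, libraries 2 and 6 stood farthest from the rest, with mean correlations of 0.963 and 0.953 to their group, where the libraries of the other groups had 0.975 or more.

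On GRCm38, 3 of the members lie on chromosome 19: Aldh1a1 (ENSMUSG00000053279) at chr19:20601961-20643462 on the plus strand, Cyp26a1 (ENSMUSG00000024987) at chr19:37697808-37701528 on the plus strand, and Rbp4 (ENSMUSG00000024990) at chr19:38116620-38125321 on the minus strand. Cyp26b1 (ENSMUSG00000063415) lies at chr6:84571414-84593908 on the minus strand, Lrat (ENSMUSG00000028003) at chr3:82892579-82903973 on the minus strand, and Bco1 (ENSMUSG00000031845) at chr8:117095854-117133720 on the plus strand. Rdh10 (ENSMUSG00000025921) lies at chr1:16105774-16133734 on the plus strand, Dhrs3 (ENSMUSG00000066026) at chr4:144892827-144928209 on the plus strand, and Rarb (ENSMUSG00000017491) at chr14:16430842-16575472 on the minus strand. No member shares exonic bases with another gene in the annotation, and values are counts over all exons.

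Retinoic acid receptors bind direct repeats of a 6-base half-site. RefSeq promoter windows of GRCm38.p6, running from 250 bases before to 50 bases after each start, were found for 8 of the 9 members, in 12 windows. They were searched on both strands for a half-site repeated in the same direction with 2 or 5 bases between, where a half-site was AGGTCA (the consensus), AGTTCA, or their forms with a leading G, which are GGGTCA for the former and GGTTCA for the latter. The 5-base spacing occurred in Rarb and Cyp26a1, and in 32 of 32851 windows of all genes (0.0974%), while the 2-base spacing occurred in no member window and in 88 of all windows (0.268%). Both stretches are shown because both genes carry the same spacing, on different strands relative to the gene. In Rarb the half-sites differ from each other (GGTTCA and AGTTCA), and in Cyp26a1 both are AGTTCA, read on the opposite strand. They cover bases 120 to 1 before the RefSeq start of each gene on the gene's own strand, with the half-sites in capitals. In Rarb (chr14:16575477-16575596, minus strand) the repeat spans bases 53 to 37 before the start, and in Cyp26a1 (chr19:37697688-37697807, plus strand) it lies on the opposite strand at bases 32 to 16. For Rarb this start lies 4 bases before the start of the gene span given above, and another annotation of the same build (GENCODE vM21) starts the gene farther upstream, outside the window. A match is a description of letters and not of binding.
Rarb: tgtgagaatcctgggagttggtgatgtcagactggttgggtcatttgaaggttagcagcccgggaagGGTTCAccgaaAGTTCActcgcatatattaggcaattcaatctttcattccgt
Cyp26a1: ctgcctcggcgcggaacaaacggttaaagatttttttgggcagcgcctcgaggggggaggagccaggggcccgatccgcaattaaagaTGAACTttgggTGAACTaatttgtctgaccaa

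The members differed widely in level per length of transcript. As mean RPKM (CPM divided by kilobases of exon) over the 25 libraries, Rbp4 was at 1755 and Aldh1a1 at 483.6, followed by Dhrs3 at 55.9 and Cyp26a1 at 12.2. Lrat was at 8.08 RPKM, Rdh10 at 6.82, Cyp26b1 at 3.57, Bco1 at 2.27 and Rarb at 2.04. The lowest raw count of any member in any library was 60, for Bco1 in a chow library, so counting error was largest for Bco1 and Rarb. Between group means the range was widest for Cyp26b1, 2.87-fold between WD WT EV and WD WT NAMPT, and narrowest for Rarb, 1.3-fold. WD WT NAMPT was the lowest of the 5 groups for Rbp4, Dhrs3, Aldh1a1, Cyp26a1 and Cyp26b1, and chow was the lowest for Lrat, Bco1 and Rdh10. Neighbouring groups in the order of means overlapped in every case except chow below the next group for Lrat and Bco1, and chow above WD WT EV for Dhrs3.

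**Figure D1:**
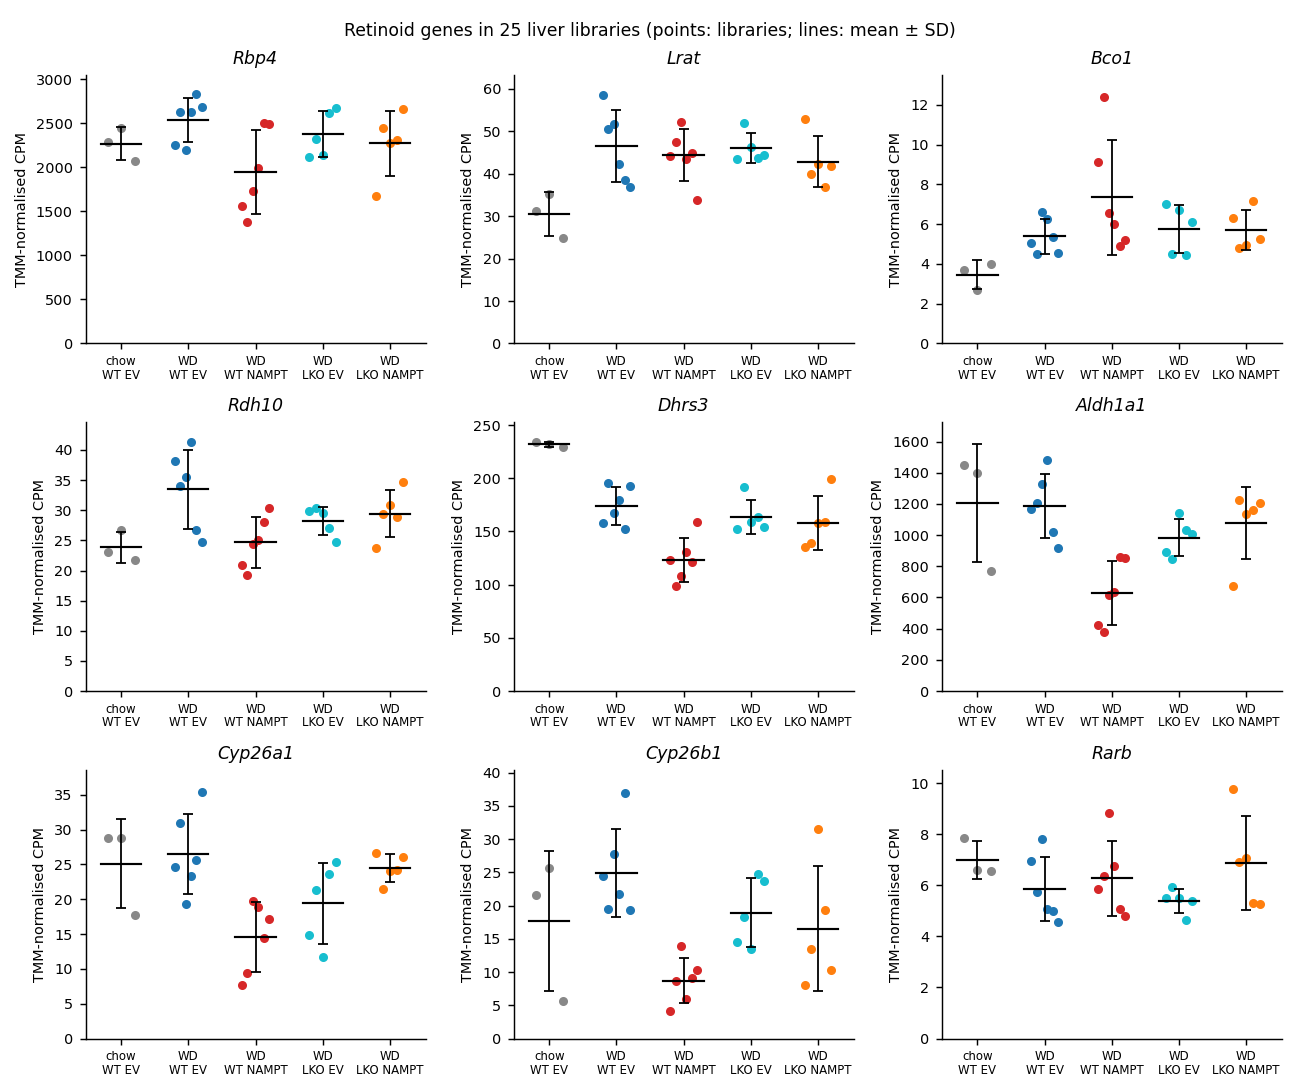
Level of each member in CPM (y axis, normalised by TMM, linear from 0) in every library (points) of the 5 groups (x axis), with the mean and SD as lines. The 6 WD WT NAMPT libraries lie below all 6 WD WT EV libraries for Aldh1a1 and Cyp26b1, and the 3 chow libraries lie apart from WD WT EV for Lrat, Bco1 and Dhrs3.

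The NAMPT vector was first compared with the empty vector in WT mice on Western diet. Retinoid genes were lower with NAMPT at several steps: the hydroxylases Cyp26b1 and Cyp26a1, the retinal dehydrogenase Aldh1a1, the reductase Dhrs3, the retinol dehydrogenase Rdh10 and the carrier Rbp4 fell, while the storage gene Lrat, Bco1 and Rarb did not pass the test. Of the 9 members 6 were called at an adjusted p of 0.05 or less (limma, Benjamini-Hochberg adjustment over 14065 genes), all of them lower, against 13.4% of all genes called in either direction and 5.77% called lower. The 13.4% itself was 0.938% without WD WT NAMPT library 3, 2.07% and 4.44% without WD WT EV library 2 or 6, 8.86% and 5.2% without WD WT NAMPT library 1 or 2, and 20.2% without WD WT NAMPT library 6. The median log2 fold change of the 9 members was -0.44, against 0 over all genes. P-values rest on the spread between libraries of a group, taken as separate mice.

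Rbp4 encodes the plasma carrier of retinol and is made in hepatocytes. Its 6 WD WT EV libraries ran from 2200 through a median of 2624 to 2833 CPM, and the 6 WD WT NAMPT libraries from 1377 through 1862 to 2507 CPM. Libraries 1 to 4 of WD WT NAMPT lay below every WD WT EV library, whereas libraries 5 and 6, at 2507 and 2491 CPM, lay inside their range. The fitted difference was -0.39 ± 0.12 (log2, SE), or 1.31-fold lower, with an adjusted p of 0.0285 in limma. The call held in 5 of 12 fits that left out 1 library each and was lost without library 2, 6, 7 or 8 of WD WT EV, or library 1, 2 or 3 of WD WT NAMPT, with values of -0.37 to -0.31. It was also lost under 8 of 10 other settings, among them edgeR (adjusted p = 0.104) and DESeq2 (0.0505).

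Lrat, which forms retinyl esters and marks stellate cells in liver, ran from 37 through 46.4 to 58.7 CPM in WD WT EV and from 33.9 through 44.6 to 52.3 CPM in WD WT NAMPT. The groups overlapped almost completely, with a difference of -0.03 (95% CI -0.25 to 0.19, limma adjusted p = 0.881) whose sign turned to 0.01 with upper-quartile scaling and 0.13 with library sizes alone. Bco1, which cleaves beta-carotene to retinal, ran from 4.5 through 5.22 to 6.59 CPM in WD WT EV and from 4.88 through 6.28 to 12.4 CPM in WD WT NAMPT. Only libraries 1 and 2 of WD WT NAMPT, at 9.13 and 12.4 CPM, lay above all WD WT EV libraries, and the difference of 0.35 (95% CI -0.02 to 0.71) did not pass (limma adjusted p = 0.193).

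Rdh10 oxidises retinol to retinal and Dhrs3 reduces retinal back to retinol, so the products of the pair run the step in opposite directions. Rdh10 ran from 24.8 through 34.9 to 41.4 CPM in WD WT EV and from 19.2 through 24.7 to 30.4 CPM in WD WT NAMPT. The groups overlapped, and 3 of 6 WD WT NAMPT libraries lay below every WD WT EV library. Rdh10 fell by 0.44 on the log2 scale (SE 0.11, 1.35-fold, limma adjusted p = 0.0158), and its call was lost without WD WT EV library 2 (-0.43) or 6 (-0.38), or WD WT NAMPT library 3 (-0.41), with library sizes alone as the scaling (-0.28, adjusted p = 0.0717), in edgeR (0.0511), with no filter on low counts (0.0545), with no quality weights (0.0607) and with only the groups compared in the fit (0.0531). Dhrs3 ran from 152.7 through 173.5 to 195.6 CPM in WD WT EV and from 99 through 122 to 159 CPM in WD WT NAMPT. Of the 6 WD WT NAMPT libraries 5 lay below every WD WT EV library, and only library 6 reached into their range. Dhrs3 fell by 0.55 (SE 0.10, 1.46-fold, limma adjusted p = 0.00582) and stayed called in all 12 fits that left out 1 library.

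Aldh1a1 oxidises retinal to retinoic acid. In WD WT EV it ran from 916 through 1186 to 1482 CPM. In WD WT NAMPT the 6 libraries held 421, 379.9, 618, 637, 859 and 852 CPM. Every WD WT NAMPT library lay below every WD WT EV library, as was the case for 0.59% of all genes. The difference was -0.91 ± 0.16 (log2, SE), or 1.88-fold lower (limma adjusted p = 0.00582), and it ranged from -1.03 to -0.83 with 1 library left out, always called.

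Cyp26a1 and Cyp26b1 hydroxylate retinoic acid and so clear it. Cyp26a1 ran from 19.3 through 25.2 to 35.4 CPM in WD WT EV, and the WD WT NAMPT libraries held 7.75, 9.48, 19.7, 18.9, 14.5 and 17.1 CPM, of which only the 19.7 CPM of library 3 reached into the empty vector range. Cyp26a1 fell by 0.74 (log2, SE 0.21, 1.67-fold, limma adjusted p = 0.024), and the call was lost without WD WT EV library 2 (-0.63) or 6 (-0.75), or WD WT NAMPT library 2 (-0.67) or 3 (-0.84), with the replicate block (-0.55, limma adjusted p = 0.167) and with only the groups compared in the fit (0.0507). Cyp26b1 ran from 19.3 through 23.1 to 36.9 CPM in WD WT EV, and the WD WT NAMPT libraries held 4.2, 8.65, 13.9, 5.96, 9.1 and 10.3 CPM. It was the second member, with Aldh1a1, whose groups did not overlap. Cyp26b1 fell by 1.46 (SE 0.33, 2.75-fold, limma adjusted p = 0.0121), the farthest from 0 of the 9 members, and ranged from -1.75 to -1.18 with 1 library left out, always called.

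Rarb encodes retinoic acid receptor beta and is itself induced by retinoic acid. It ran from 4.57 through 5.41 to 7.81 CPM in WD WT EV and from 4.79 through 6.1 to 8.85 CPM in WD WT NAMPT, where only library 3, at 8.85 CPM, lay above every WD WT EV library. The difference of 0.23 (95% CI -0.09 to 0.55) did not pass (limma adjusted p = 0.335) and was 0.06 without that library.

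Several cell type markers moved with WD WT NAMPT. The 7 measured pericentral hepatocyte markers summed to 3211, 1874, 3776, 3736, 6789 and 8187 CPM in libraries 1 to 6, against 5794 to 9590 CPM in WD WT EV, and 2 of the 7, Oat and Cyp2e1, fell. The 8 macrophage markers summed to 997, 933, 968, 684, 566 and 337 CPM, against 352 to 508 CPM in WD WT EV, and 5 of the 8 rose. The 7 markers of activated stellate cells or myofibroblasts summed to 40.2 to 469 CPM, against 55.7 to 180.5 CPM, with 3 of the 7, all collagens, higher, and the 5 leukocyte markers to 12.2 to 66.1 CPM, against 13.4 to 28.7 CPM, with 2 higher. The 10 markers of stellate cells, which store retinyl esters, summed to 452 to 610.5 CPM against 448 to 549 CPM, with 3 of 10 higher, and of the 6 sinusoidal endothelial markers Pecam1 was higher and Clec4g lower. No marker was at 0 in all libraries, and Timp1 was at 0 in some. The part of these cell types in the members' values was not tested. In whole liver, fewer cells of a type and less RNA per cell cannot be told apart.

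**Figure D2:**
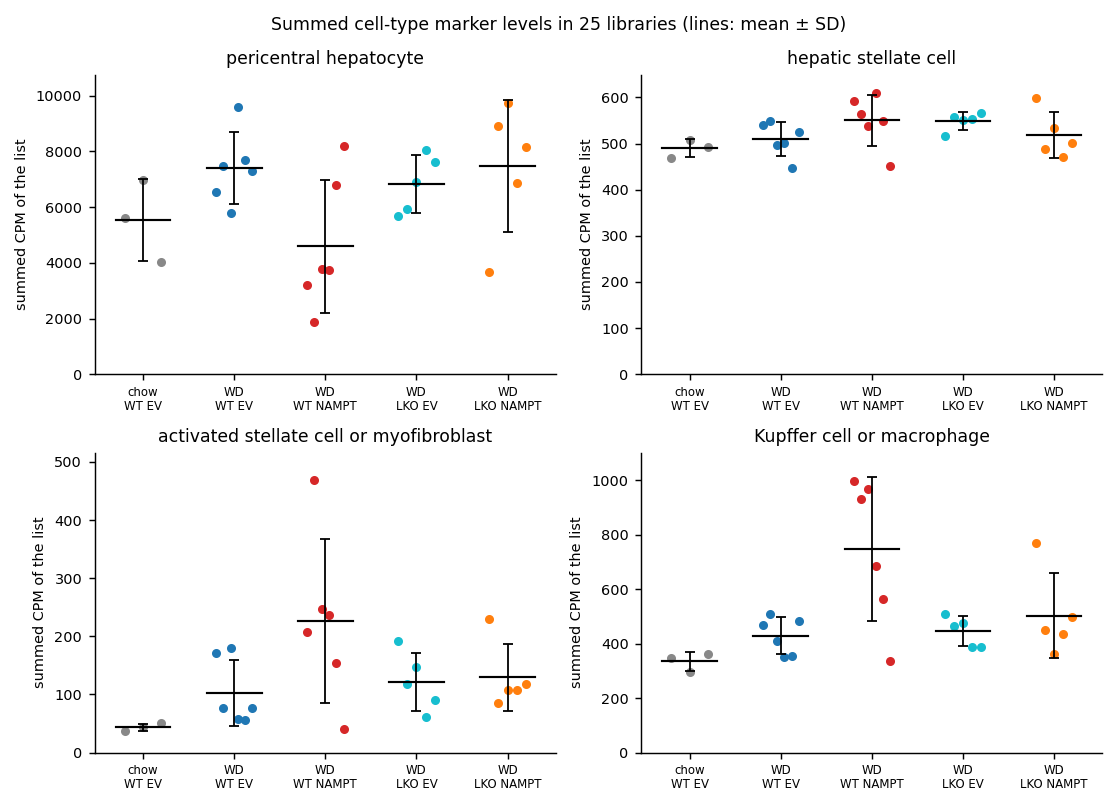
Summed level of 4 cell type marker lists in CPM (y axis, linear from 0) in every library (points) of the 5 groups (x axis), with mean and SD as lines. Libraries 1 to 4 of WD WT NAMPT, from 1874 to 3776 CPM, lie below all WD WT EV libraries for pericentral markers and, from 684 to 997 CPM, above them for macrophage markers, while the stellate cell sums of WD WT EV and WD WT NAMPT overlap.

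Without libraries 1, 2 and 3 of WD WT NAMPT, those with the highest macrophage sums, none of the 9 members was called in limma. In that fit 5 members had an unadjusted p under 0.05, and 0 of all 14065 genes were called, with 2263 at an unadjusted p under 0.05. Aldh1a1 was then at -0.56, Rbp4 at -0.09, Rdh10 at -0.28, Dhrs3 at -0.5, Cyp26a1 at -0.8 and Cyp26b1 at -1.48, so the values of Rbp4, Aldh1a1 and Rdh10 moved by over 1.5 times and those of the other 3 did not. Leaving out 1 library changed the count of 6 by over 1.5 times in 3 cases, to 3 members each without library 2 or 6 of WD WT EV or library 3 of WD WT NAMPT. The 3 members were Aldh1a1, Dhrs3 and Cyp26b1 each time. Library sizes alone as the scaling moved the median of all genes by 0.16 and the share of higher genes among those called from 57.1% to 88.1%, and upper-quartile scaling moved that share to 67.1%, while all 6 members kept negative values in both.

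The same vector comparison in mice labelled LKO gave no call. None of the 9 members passed in WD LKO NAMPT against WD LKO EV in limma, and 0.00711% of all genes (1 gene) were called. No member had an unadjusted p under 0.05, whereas 1355 of the 14065 genes did. The members' values ran from -0.40 for Cyp26b1 to 0.41 for Cyp26a1. Aldh1a1 held 891, 847, 1141, 1032 and 1004 CPM in WD LKO EV, and 672, 1224, 1137, 1159 and 1208 CPM in WD LKO NAMPT. Library 1 of WD LKO NAMPT was the lowest of both groups for Aldh1a1 and the other 4 were high, with a fitted difference of 0.21 (95% CI -0.15 to 0.56, limma adjusted p = 0.75). That library also had the highest macrophage sum, 769 CPM, and the lowest pericentral sum, 3685 CPM, of the 10 LKO libraries.

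Cyp26a1 had a positive value with NAMPT in LKO and was not called. It held 14.9, 21.4, 11.7, 23.7 and 25.3 CPM in WD LKO EV and 26.6, 21.5, 24, 24.2 and 26 CPM in WD LKO NAMPT, with the lower end of WD LKO EV well below the WD LKO NAMPT libraries but the groups overlapping. The difference was 0.41 (95% CI -0.03 to 0.85, limma adjusted p = 0.56), and it was 0.15 without WD LKO EV library 3. Cyp26b1 held 14.5, 18.3, 13.5, 24.8 and 23.7 CPM in WD LKO EV and 8.06, 13.5, 31.6, 19.3 and 10.3 CPM in WD LKO NAMPT, where library 3 was higher than any WD LKO EV library and libraries 1 and 5 were lower. Its difference of -0.40 had a 95% CI of -1.05 to 0.24.

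The 3 remaining genes called in WT had LKO values closer to 0. Dhrs3 held 152 to 192 CPM in WD LKO EV and 135 to 199 CPM in WD LKO NAMPT, a difference of -0.08 (95% CI -0.29 to 0.13). Rdh10 held 24.8 to 30.3 CPM and 23.7 to 34.7 CPM, a difference of 0.07 (95% CI -0.17 to 0.31). Rbp4 held 2119 to 2675 CPM and 1674 to 2659.7 CPM, with a fitted difference of 0 (95% CI -0.25 to 0.25).

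Whether the vector effect differed between the genotypes was tested by the interaction, the LKO effect minus the WT effect, for all genes. None of the 9 members was called in limma, and 0.00711% of all genes (1 gene) were called. At an unadjusted p under 0.05 were 6 members, and 2986 of the 14065 genes. Aldh1a1 had an interaction of 1.12 ± 0.24 (log2, SE, adjusted p = 0.0574), Cyp26a1 of 1.15 ± 0.30 (0.0745) and Cyp26b1 of 1.06 ± 0.45 (0.185). The interaction was 0.51 ± 0.16 for Rdh10 (limma adjusted p = 0.0961), 0.47 ± 0.14 for Dhrs3 (0.0927) and 0.39 ± 0.17 for Rbp4 (0.183), which was 0.08 without WD WT NAMPT libraries 1, 2 and 3 and 0.24 with the replicate block. The block also moved Dhrs3 to 0.30. All 6 genes that fell in WT had a positive interaction, a value computed in part from the same WT libraries, and none was shown to differ between genotypes at the threshold. Aldh1a1 passed in DESeq2 (1.04, adjusted p = 0.0391), with the replicate block (1.21, limma adjusted p = 0.04), without WD WT NAMPT libraries 2 and 6 (1.07, 0.0464) and in the fits without WD WT EV library 8 (1.18), WD WT NAMPT library 5 (1.24) or 6 (1.18), or WD LKO NAMPT library 1 (1.22). Without WD WT NAMPT library 6, Dhrs3 (0.51) and Cyp26a1 (1.15) passed as well, and without WD LKO NAMPT library 1 so did Dhrs3 (0.50), Cyp26a1 (1.13) and Rdh10 (0.56), making 4 members. In these last 2 fits the share of all genes called was 4.54% and 4.81%, and it was 2.6% without WD WT NAMPT library 5 and 0.441% without WD WT EV library 8. Averaged over both genotypes, the vector had 2 members called, Cyp26b1 at -0.93 (limma adjusted p = 0.0394) and Dhrs3 at -0.31 (0.033), against 1.79% of all genes. With the replicate block Cyp26b1 did not pass (-0.92, limma adjusted p = 0.0722). The count of 2 dropped to 0 or 1 in 13 of 22 fits that left out 1 library: to 0 without library 2 or 4 of WD LKO EV, 2 or 6 of WD WT EV, 1, 2 or 3 of WD WT NAMPT, or 1 or 2 of WD LKO NAMPT, and to 1 without library 5 of WD LKO EV, 7 of WD WT EV, 4 of WD WT NAMPT or 5 of WD LKO NAMPT.

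**Figure D3:**
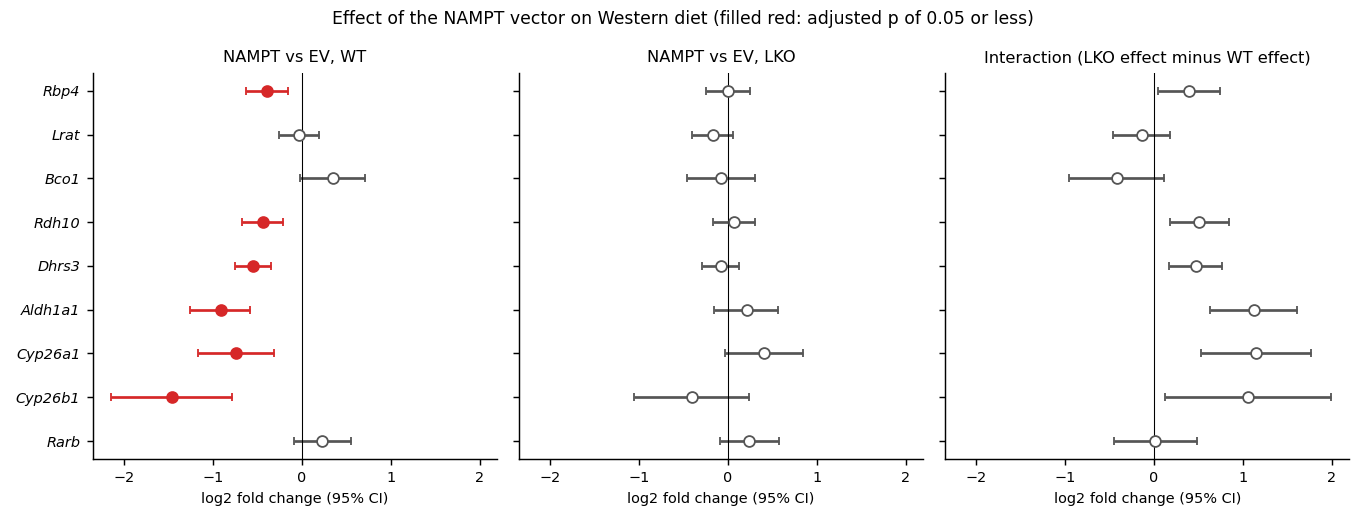
Fitted log2 fold change (x axis, points) with 95% confidence interval (lines) of the 9 members for the NAMPT vector against the empty vector in WT (left) and LKO (middle) and for the interaction (right). Filled red points passed an adjusted p of 0.05, namely 6 members in WT, from -1.46 to -0.39, and none in LKO or for the interaction.

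Genotypes were also compared under each vector. With NAMPT, Aldh1a1 and Dhrs3 were higher in WD LKO NAMPT than in WD WT NAMPT, 2 of 9 members, against 7.96% of all genes called. Aldh1a1 was at 1080.1 ± 230.8 CPM (SD, n = 5) in WD LKO NAMPT and 628 ± 204 CPM (n = 6) in WD WT NAMPT, a difference of 0.83 ± 0.17 (log2, SE, limma adjusted p = 0.0148). Only library 1 of WD LKO NAMPT, at 672 CPM, lay within the WD WT NAMPT range. The call was lost without library 3 of WD WT NAMPT (0.78) or library 2 (0.75) or 5 (0.77) of WD LKO NAMPT, and without WD WT NAMPT libraries 1, 2 and 3 together (0.47, limma adjusted p = 0.135). Dhrs3 was at 158 ± 25.3 CPM and 123.5 ± 20.9 CPM, a difference of 0.38 ± 0.11 (limma adjusted p = 0.0336), which was lost without library 1 (0.35), 2 (0.32) or 3 (0.29) of WD WT NAMPT or library 2 (0.45), 3 (0.38) or 5 (0.28) of WD LKO NAMPT, and under 9 of 10 other settings. In edgeR neither gene passed, with an adjusted p of 0.0935 for Aldh1a1 and 0.13 for Dhrs3. Cyp26a1 did not pass (0.58, 95% CI 0.12 to 1.03, limma adjusted p = 0.0901), although its lowest WD LKO NAMPT library, at 21.5 CPM, was above the highest WD WT NAMPT library, at 19.7 CPM, as for 0.789% of all genes. The count of 2 went to 0 without library 3 of WD WT NAMPT or library 2 or 5 of WD LKO NAMPT, and to 1 without library 1 or 2 of WD WT NAMPT or library 3 of WD LKO NAMPT. Cell type markers moved along here too: 4 of 7 pericentral markers were higher in WD LKO NAMPT, and lower were 2 of 8 macrophage markers (Lyz2 and Csf1r), Ptprc of 5 leukocyte markers, Pdgfrb of 10 stellate cell markers, Sox9 of 4 bile duct markers and Tat of 6 hepatocyte markers. Their part was not tested. Library sizes alone moved the median of all genes from -0.01 to -0.12 and the share of higher genes among those called from 52.5% to 24.3%, and upper-quartile scaling to 32.6%, while Aldh1a1 and Dhrs3 kept positive values.

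With the empty vector, none of the 9 members was called between WD LKO EV and WD WT EV in limma, and 0.00711% of all genes were called. At an unadjusted p under 0.05 were 891 of the 14065 genes, among them 2 members. These 2 were Cyp26a1, at 19.4 ± 5.87 CPM (SD, n = 5) against 26.6 ± 5.75 CPM (n = 6) and -0.57 (95% CI -0.99 to -0.15, limma adjusted p = 0.642, and -0.31 without WD LKO EV library 3), and Rdh10 at -0.23 (95% CI -0.46 to -0.01, adjusted p = 0.774). Averaged over both vectors, the genotype had no member called, against 0.242% of all genes, with values from -0.09 to 0.27. At an unadjusted p under 0.05 (limma) were 1 member, Aldh1a1, and 2176 of the 14065 genes. These comparisons share libraries with those above.

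Western diet was compared with chow in WT mice with the empty vector. Lrat, Bco1 and Rdh10 rose and Dhrs3 fell, while Rbp4, Aldh1a1, both Cyp26 genes and Rarb did not pass. The 4 called of 9 members stood against 22% of all genes called, and 3 members had libraries that did not overlap, against 16.1% of all genes. Lrat held 31.2, 35.3 and 24.9 CPM on chow, all below the lowest of the 6 WD WT EV libraries at 37 CPM. It was 0.54 ± 0.11 higher (log2, SE, 1.45-fold, limma adjusted p = 0.00175) and stayed called in all 9 fits that left out 1 library. The summed stellate cell markers, at 468 to 507 CPM on chow and 448 to 549 CPM on Western diet, overlapped, with none of 10 called. Other lists moved with diet: the sums of the 7 activated stellate cell or myofibroblast markers did not overlap, at 37.6 to 50.2 CPM on chow and 55.7 to 180.5 CPM in WD WT EV, with 1 of 7, Col3a1, higher. Among macrophage markers 2 of 8 were higher, Cd5l and Cd68, with sums of 295 to 361 CPM and 352 to 508 CPM, and 2 of 6 hepatocyte markers (Cps1 and Tat) and 2 of 5 periportal markers (Hal and Gls2) were lower. Of 6 sinusoidal endothelial markers Lyve1 was higher and Kdr lower. The part of these lists in the members' diet values was not tested.

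Bco1 held 3.72, 2.67 and 4.02 CPM on chow and 4.5 to 6.59 CPM in WD WT EV, without overlap. It was 0.69 ± 0.23 higher (limma adjusted p = 0.0291), and the call was lost without chow library 1 (0.64) or 2 (0.42) or WD WT EV library 4 (0.63), in edgeR (adjusted p = 0.119), in DESeq2 (0.0907), with library sizes alone (limma, 0.0535), with no filter (0.0995) and with no quality weights (0.218). With no quality weights Rdh10 (adjusted p = 0.0596) and Dhrs3 (0.0506) were lost too. Rdh10 held 23.1, 26.7 and 21.7 CPM on chow against 24.8 to 41.4 CPM, with chow library 2 inside the Western diet range. It was 0.44 ± 0.12 higher (limma adjusted p = 0.00946), lost without chow library 1 (0.48). Dhrs3 held 234, 232 and 229.5 CPM on chow, all above the 195.6 CPM of the highest WD WT EV library, and fell by 0.40 (SE 0.11, limma adjusted p = 0.00875), lost without chow library 1 (-0.39) or 2 (-0.39). Without chow library 1 the count of 4 became 1, Lrat, and without chow library 2 it became 2, Lrat and Rdh10.

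The 5 members that did not pass had values from -0.28 for Rarb to 0.24 for Cyp26b1. Their chow libraries did not lie together: library 3 held 772 CPM of Aldh1a1, 17.8 CPM of Cyp26a1 and 5.72 CPM of Cyp26b1, where libraries 1 and 2 held 1449 and 1397, 28.8 and 28.8, and 21.6 and 25.6 CPM. Library 3 was thus the lowest chow library for all 3 genes, and also had the lowest pericentral sum on chow, 4033 CPM against 5605 and 6989 CPM. Rdh10 and Dhrs3 moved in opposite directions between chow and Western diet, and in the same direction between the empty vector and NAMPT on Western diet.

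Beyond the 9 members, 53 further genes of the pathway were followed by role, of which 44 passed the filter. With NAMPT in WT mice 3 of the 44 were called higher and 7 lower, against 13.4% of all genes called and 5.77% called lower. One of the 3, Aldh1a3, passed the filter only through WD WT NAMPT libraries, so its entry in the count is not independent of its level there. Among genes whose products form or hydrolyse retinyl esters, Lpl, lipoprotein lipase, rose 2.72-fold (1.44 ± 0.30, limma adjusted p = 0.00922) and Ces1d, a carboxylesterase, fell 1.99-fold (-0.99 ± 0.21, 0.00922). Dgat1, an acyltransferase that can also esterify retinol, fell by 0.25 (limma adjusted p = 0.0321), at -0.09 with library sizes alone, and its call was lost without WD WT EV library 1, 2 or 6 or WD WT NAMPT library 1, 2 or 3, in edgeR (adjusted p = 0.0871) and in DESeq2 (0.06). Bco2, which cleaves carotenoids off centre, fell by 0.48 (limma adjusted p = 0.0102). Lpl lost its call without library 3 of WD WT NAMPT (adjusted p = 0.051), and Ces1d and Bco2 kept theirs in all 12 such fits.

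Of 17 measured genes listed for the interconversion of retinol and retinal, 2 fell and none rose, against the same 13.4% of all genes called. Of these 2, Retsat saturates retinol, and only Rdh16 interconverts it with retinal. Retsat held 318 to 427 CPM in WD WT EV and 86.9 to 322 CPM in WD WT NAMPT. It fell 2.17-fold (-1.12 ± 0.18, limma adjusted p = 0.00331) and stayed called in all 12 fits with 1 library left out. Rdh16, a retinol dehydrogenase, fell 1.53-fold (limma adjusted p = 0.0358) and lost its call without library 1, 2 or 6 of WD WT EV or library 1, 2 or 3 of WD WT NAMPT, or with library sizes alone (adjusted p = 0.0933). Aldh1a3, another retinal dehydrogenase, was at very low levels, 0.407 ± 0.26 CPM in WD WT EV and 1.1 ± 0.474 CPM in WD WT NAMPT, where it was highest, and stayed below 1 CPM in every library of the other groups. Since only WD WT NAMPT took it past the filter, its fitted value of 1.62 is a description. Cyp2c39, a retinoic acid hydroxylase, fell by 1.04 (limma adjusted p = 0.0276). It belongs to a family of near-identical genes among which reads could be split, as do Ces1d and Rdh16.

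None of the 5 nuclear receptor genes measured beside Rarb was called with NAMPT in WT. Of 5 genes known to respond to retinoic acid, Rarres1 fell by 1.19 ± 0.32 (limma adjusted p = 0.0186), with 82.9 to 126 CPM in WD WT EV and 25.6 to 141 CPM in WD WT NAMPT, and Tgm2, transglutaminase 2, rose by 0.81 ± 0.23 (adjusted p = 0.0242). The 2 therefore moved in opposite directions, and the median of the 5 was 0.11. Rarres1 kept its call in 9 of 12 fits with 1 library left out, and Cyp2c39 and Tgm2 in 7. Every call of these 3 was lost without library 2 of WD WT EV, and those of Rarres1 and Tgm2 also without library 2 or 3 of WD WT NAMPT, in edgeR (adjusted p = 0.24 and 0.117) and in DESeq2 (0.252 and 0.0701). Tgm2 was further lost without WD WT EV library 6 or WD WT NAMPT library 4, and Cyp2c39 without WD WT EV library 6 or WD WT NAMPT library 1, 2 or 3. Bco2 was lost in edgeR (adjusted p = 0.0573) and with the replicate block (limma adjusted p = 0.077). With no quality weights Lpl (limma adjusted p = 0.0569), Cyp2c39 (0.0564) and Rdh16 (0.0579) were lost, and with no filter (0.069 and 0.0803) or only the groups compared (0.077 and 0.111) so were Cyp2c39 and Rdh16. Rarres1, Tgm2 and Dgat1 were also lost with no quality weights and with no filter. Tgm2 and Dgat1 were lost with only the groups compared, and Rarres1 and Tgm2 with the replicate block. Cyp2c39, Rdh16 and Dgat1 were lost without WD WT NAMPT libraries 2 and 6, and Dgat1 with upper-quartile scaling or library sizes alone. Without libraries 1, 2 and 3 of WD WT NAMPT none of the 10 pathway genes named here was called, and the values of Rarres1 (-0.24), Tgm2 (0.34), Ces1d (-0.49), Lpl (0.85), Retsat (-0.62), Rdh16 (-0.40) and Cyp2c39 (-0.61) moved by over 1.5 times. In LKO mice none of the 44 was called with NAMPT, with values from -0.96 to 1. Between WD LKO NAMPT and WD WT NAMPT 5 of the 44 were higher, Retsat (0.76), Rdh16 (0.68), Ces1d (0.74), Bco2 (0.43) and Cyp2c39 (1.27), and none was lower, against 7.96% of all genes called. All 5 calls were lost in edgeR, with no filter on low counts and with only the groups compared in the fit, and also without library 2 or 3 of WD WT NAMPT or library 3 or 5 of WD LKO NAMPT. Without WD WT NAMPT libraries 1, 2 and 3 together none of the 5 was called, with Retsat at 0.25, Ces1d at 0.22, Rdh16 at 0.46, Bco2 at 0.29 and Cyp2c39 at 0.82. None of these 5 was called without library 2 of WD LKO NAMPT, which left 0 of all genes called (limma), 2287 of them at an unadjusted p under 0.05.

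On Western diet against chow 9 of the 44 were higher and 4 lower, against 22% of all genes called. Of the 17 listed for the interconversion of retinol and retinal, 2 were higher and 2 lower. Among the 9 was Pnpla3, a lipase of lipid droplets that also hydrolyses retinyl esters. It held 0.134 to 1.03 CPM on chow and 2.45 to 25.7 CPM in WD WT EV. Pnpla3 passed the filter through Western diet libraries, so its entry in the count is not independent of its level there. Its fitted value of 4.53 ± 1.53 is a description. Rdh11, another retinal reductase, fell 3.04-fold from 83.6 ± 6.93 to 28.4 ± 8.51 CPM (limma adjusted p = 8.16e-06), and Rdh16 rose 1.9-fold (0.00154). Among the receptors, Rara rose 1.5-fold from 27.1 ± 0.795 to 41.5 ± 4.88 CPM (limma adjusted p = 5.59e-05) and Rxrg 1.48-fold (0.00297), and Rarres1 rose 2.42-fold (0.00745). Rdh11, Rara and Rarres1 kept their calls in all 9 fits with 1 library left out, Rdh16 and Rxrg lost theirs without chow library 1 or 2, and Pnpla3 without any 1 of the 3 chow libraries. Of the retinol dehydrogenases Rdh9 rose by 0.76 (limma adjusted p = 0.0452) and Rdh16f2 fell by 0.84 (0.0176), and the lipase Pnpla2 (0.44, 0.0149) and the lipoprotein receptor Scarb1 (0.42, 0.0202) were higher. All 4 lost their calls without chow library 1 or 2, where Pnpla2 was at 0.15 and 0.28, and Rdh9 also without chow library 3 or WD WT EV library 1, 4, 6 or 7. Scarb1 was also lost with the replicate block (0.17, limma adjusted p = 0.32), and Rdh16f2 and Pnpla2 in DESeq2 (adjusted p = 0.103 and 0.246). In edgeR Rdh16f2 (adjusted p = 0.124), Pnpla2 (0.257), Scarb1 (0.0743), Rdh16 (0.0545) and Rarres1 (0.0539) did not pass. With no quality weights Pnpla3, Rdh16, Rdh16f2, Rdh9, Scarb1 and Pnpla2 lost their calls. So did Rdh16f2, Rdh9 and Scarb1 with only the groups compared, Pnpla3, Rdh9 and Pnpla2 with no filter, and Rdh9 with library sizes alone.

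**Figure D4:**
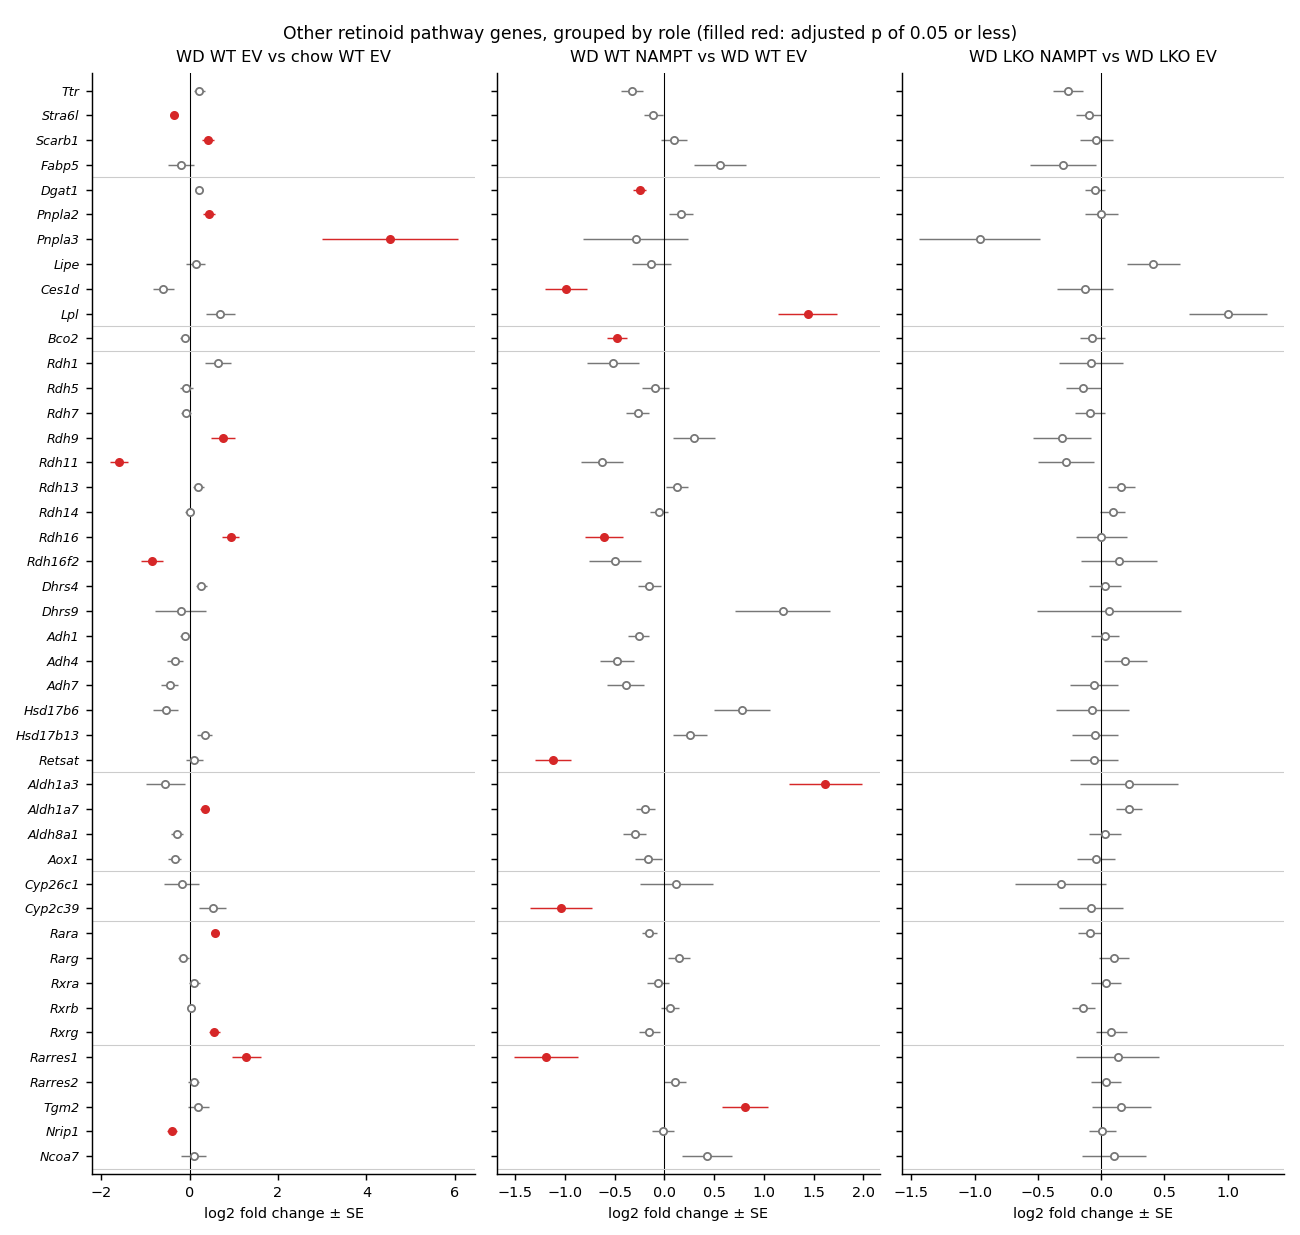
Fitted log2 fold change with standard error (x axis) of the 44 further pathway genes (rows, grouped by role from transport at the top to retinoic acid responsive genes at the bottom) for Western diet against chow (left) and NAMPT against the empty vector in WT (middle) and LKO (right). Filled red points passed an adjusted p of 0.05, 13 genes for diet, 10 for NAMPT in WT and none in LKO. Among them, Pnpla3 for diet and Aldh1a3 for NAMPT in WT passed the filter through libraries where they were high, and their points are a description.

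Among 12558 genes compared over the 25 libraries, the pattern of Dhrs3 was most like that of Mreg (Pearson r = 0.962, and 0.909 after the group means were removed), and that of Rbp4 most like Pccb (0.939 and 0.913). Aldh1a1 was most like Pgrmc1 (0.933 and 0.904) and Ces1g (0.931 and 0.876). For Rdh10 the nearest gene was Ppp2r1b (0.886 and 0.832) and for Bco1 it was Stmn1 (0.892 and 0.821). Likeness was lower for Lrat, with Pltp (0.832 and 0.729), for Cyp26a1, with Slc2a9 (0.799 and 0.791), for Cyp26b1, with Wnt2 (0.784 and 0.727), and for Rarb, with Plce1 (0.715 and 0.691). These libraries share groups and differ in depth and in the levels of cell type markers, so the correlations describe them only.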

How the data were processed

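The deposited files hold raw read counts, CPM and RPKM per Ensembl gene for each of the 25 libraries. Per the labels and the study's methods, the authors sequenced poly-A RNA, aligned to GRCm38 with STAR and counted with featureCounts (STAR 2.5.1a and featureCounts 1.4.6-p5 in the submitters' processing notes, with other versions in the methods), and whether counting used strand is not given in the sources used here. The authors' CPM and RPKM were recomputed from the counts (largest relative deviation 5.9e-14) and not tested, and of the 41388 identifiers 40254 matched a symbol.

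Groups came from the sample titles. Counts were kept for genes above 1 CPM in at least 2 libraries, less 4 ribosomal RNA genes, which left 14065 genes. They were fitted over all 25 libraries with TMM scaling (edgeR 4.0.16) and limma 3.58.1 (voom with sample quality weights, 1 mean per group), and p-values were Benjamini-Hochberg adjusted over these genes, with a call at 0.05. CPM in the text are TMM-normalised, RPKM divide them by gene length, and likeness used log2(CPM + 0.5). Totals ran from 20166175 to 32937326 counts. The fit was tested on simulated data. DESeq2 1.42.0, edgeR's quasi-likelihood test and other scalings, filters and library sets were alternatives.

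All 9 members are described in the text. Of the pathway list as first set, 1 gene was left out of every count and is not reported here. Pathway genes are named where called, up to 10 per comparison by fold change. The members, pathway genes and markers were chosen with earlier results of these data known. Both fits without several WD WT NAMPT libraries were added after the data were seen. No batch, cage or collection hour is in the labels.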

Additional observations from a re-analysis of the deposited data

Results flagged for a closer look

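Of 36 combinations of a gene and a group with 4 to 10 libraries, 1 held a library far from the others. Aldh1a1 in WD LKO NAMPT library 1 was at 672 CPM, and the next library of the group was at 1137 CPM. On the log2(CPM + 0.5) scale the gap was 0.876 of the group's range, above Dixon's 95% critical value of 0.71 for 5 libraries, and the same library stood out with a pseudocount of 1. Chance flags about 1 in 20 groups.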

How the results depend on the processing

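Over the alternatives tried, each of the 6 members called lower with NAMPT in WT kept a negative value. The count of 6 became 3 when only the groups compared were fitted and 0 without WD WT NAMPT libraries 1, 2 and 3, and ranged from 3 to 6 with 1 library left out. The interaction count of 0 became 1 in DESeq2, with the replicate block and without WD WT NAMPT libraries 2 and 6, and ranged from 0 to 4 with 1 library left out. For the vector averaged over genotypes, the count of 2 became 0 with no filter, in edgeR, with no quality weights and without WD WT NAMPT libraries 1, 2 and 3, and 1 with the replicate block, with a range of 0 to 3. For WD LKO NAMPT against WD WT NAMPT, the count of 2 became 1 with upper-quartile scaling, library sizes alone, no filter, DESeq2 and the replicate block, and 0 in edgeR, with no quality weights, with only the groups compared and without WD WT NAMPT libraries 1, 2 and 3, with a range of 0 to 3. For diet the count of 4 became 1 with no quality weights, and ranged from 1 to 4. The causes were not tested. In the other 3 comparisons the count stayed 0 throughout.

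With 1 library left out, the genes called ranged from 132 to 2846 in WD WT NAMPT against WD WT EV, from 0 to 2287 in WD LKO NAMPT against WD WT NAMPT and, without chow library 1 or 2, came to 952 and 843 for diet. It came to 366, 638 and 676 for the interaction without WD WT NAMPT library 5, WD WT NAMPT library 6 or WD LKO NAMPT library 1, and for the averaged vector to 989 and 919 without WD WT NAMPT library 5 or 6 and to 0 without WD WT EV library 2 (2413 at an unadjusted p under 0.05, limma). Over all genes in WD WT NAMPT against WD WT EV, 1890 were called, against 524 with no filter, 428 in edgeR, 192 with no quality weights, 653 with only the groups compared and 884 with the replicate block. In DESeq2 it was 1194. In WD LKO NAMPT against WD WT NAMPT 1120 were called, against 120, 45, 38, 12 and 412, and 294 in DESeq2. For diet 3101 were called, against 1970, 1322, 1201, 2568 and 3842, and 1745 in DESeq2. For the vector averaged over genotypes 252 were called, against 529 with library sizes alone, 422 in DESeq2, 489 without WD WT NAMPT libraries 2 and 6, 5 with no filter, 4 without WD WT NAMPT libraries 1, 2 and 3, 0 in edgeR (2402 at an unadjusted p under 0.05) and 0 with no quality weights (2373). For the interaction 1 was called, against 90 without WD WT NAMPT libraries 2 and 6, 66 with the replicate block, 13 in DESeq2, 4 with no filter, 3 with library sizes alone, 0 in edgeR (1545 at an unadjusted p under 0.05) and 0 with no quality weights (1633). For the genotype averaged over vectors 34 were called, against 19 with only the groups compared, 18 without WD WT NAMPT libraries 1, 2 and 3, 17 with no filter, 12 in edgeR, 9 with no quality weights and 8 with the replicate block. Those 34 became 10, 99 and 100 without WD LKO NAMPT library 2, 1 or 4. The single gene called in WD LKO NAMPT against WD LKO EV became 6 in DESeq2 and 0 with no filter, in edgeR (918 at an unadjusted p under 0.05), with no quality weights, with only the groups compared and with the replicate block. The single gene in WD LKO EV against WD WT EV became 11 in DESeq2, 5 with only the groups compared, 2 with the replicate block and 0 in edgeR (498 at an unadjusted p under 0.05).

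Values that turned sign were all of members not called. For Lrat with NAMPT in WT the value was 0.01 with upper-quartile scaling and 0.13 with library sizes alone, and ranged from -0.10 to 0.04 with 1 library left out. Without WD WT NAMPT libraries 1, 2 and 3, Bco1 was at -0.03 and Rarb at -0.13 in that comparison, and Rbp4 at -0.03 in WD LKO NAMPT against WD WT NAMPT. For diet, Cyp26a1 was at 0.03 with no filter, 0.08 in edgeR, 0.09 in DESeq2 and 0.09 with no quality weights, Aldh1a1 at 0.01 with no quality weights, and Rbp4 at -0.04 and Rarb at 0.01 with the replicate block. With 1 library left out, Cyp26a1 ranged from -0.13 to 0.25, Aldh1a1 from -0.26 to 0.19 and Cyp26b1 from 0 to 1.09.

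The labels give no shared litter, cage or day for a replicate number, and the numbers were not taken to pair the mice: deviations from the group means of same-numbered WD WT EV and WD WT NAMPT libraries correlated at 0.128, -0.188, 0.148 and 0.348, and 1 of these 4 WD WT EV libraries correlated best with its own number. Libraries numbered 1 correlated at 0.11 to 0.368 in all 6 pairs of Western diet groups, while libraries numbered 2 ranged from -0.188 to 0.124. With the replicate block 4 members were called with NAMPT in WT. Depth limits Bco1 and Rarb most, whose lowest counts were 60 and 89.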

Other observations

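Of the 53 further pathway genes, 9 stayed below the filter on low counts and were not tested: Stra6, Crabp1, Crabp2, Aldh1a2, Rdh12, Rbp2, Rbp7, Sdr16c5 and Sdr16c6. Ttr (transthyretin), the partner of the Rbp4 product in plasma, was at 5040 ± 494 CPM (SD, n = 3) on chow, 5672 ± 607 CPM (n = 6) in WD WT EV and 4321 ± 908 CPM (n = 6) in WD WT NAMPT, the lowest of the 5 group means. In WD LKO EV it was at 6054 ± 421 CPM (n = 5) and in WD LKO NAMPT at 4992 ± 777 CPM (n = 5), and with NAMPT in WT the difference of -0.33 was not called (limma adjusted p = 0.0537).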
